A study of Homo sapiens with 6 samples.

Results

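The genes described here encode the proteins of the mitochondrial ribosome, chosen by gene name as every symbol of the form Mrpl or Mrps followed by a number, with or without a letter a, b or c. They are 78 of the 53492 genes in the tables, and each stood on its own identifier. RNA sequencing of polyadenylated RNA was compared between 3 libraries of cells carrying pCS2-eGFP-N, a vector expressing GFP (green fluorescent protein), and 3 carrying pCS2-eGFP-CCNB1IP1, in which GFP is joined to CCNB1IP1, a ubiquitin ligase known from meiotic crossing over. All 6 libraries are labelled as SH-SY5Y, a human neuroblastoma line, and the labels give no time after transfection. Values are FPKM, fragment numbers divided by how long the transcript is and how many fragments the library holds. The labels do not say whether replicates were separate cultures, so the spread between them may be technical.

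The gene tables are those of mouse, although the labels name a human line, and all names, levels and positions below are of mouse genes. The species of the cells was not tested. The cells may be mouse cells, not those labelled, and if the reads were human, their placement on mouse genes would distort the levels compared between genes below. Mouse Ccnb1ip1 was near 0 in both groups, with means of 0.0762 and 0.108 FPKM, and the introduced sequence was not analysed here, so the groups are called by their labels. Of 10 sympathoadrenal markers, 9 were at a mean of 1 FPKM or more, and Dbh was below it. Phox2a, Hand2 and Chgb were the highest, while Th (2.47 FPKM) and Gata3 (3.94 FPKM) were low. The summed level of the 10 markers was 874.9 to 965 FPKM in the GFP libraries and 724.2 to 816.2 FPKM with CCNB1IP1, without overlap. Most of that difference was in 1 gene, Chgb, with means of 467.9 and 359.1 FPKM. Chga was also lower without overlap, with means of 89.2 and 79.4 FPKM. Of the 9 markers at 1 FPKM or more, 7 were lower with CCNB1IP1 and 2 higher. Without Chgb, a choice made after its values were seen, the sums were 436.0 to 467.5 and 403.7 to 437.7 FPKM and overlapped. The part of this difference in the results below was not tested. Of 14 fibroblast, blood and endothelial markers, 3 were at a mean of 1 FPKM or more. These were Pdgfrb (4.53 FPKM), Pecam1 (1.93 FPKM) and Pdgfra (1.89 FPKM). Col3a1 and Lum were listed at 0 in all 6 libraries. The macrophage receptor gene Csf1r had 2.05 FPKM in GFP-CCNB1IP1 replicate 2 and at most 0.075 FPKM elsewhere. Cd68 was also highest in that library, at 1.47 FPKM against 0.177 to 0.678 FPKM elsewhere. Pecam1, Cdh5 and Hba-a1 were highest in other libraries. The blood and endothelial markers summed to 6.37 FPKM in GFP-CCNB1IP1 replicate 2 and to 2.63 to 3.22 FPKM elsewhere. Depth was not given. Relative depth, which the width of the deposited intervals gives, taking the GFP mean as 1, was 0.742 in GFP-CCNB1IP1 replicate 2 and 0.950 to 1.06 in the other 5 libraries.

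Mitochondria hold their own ribosomes, which translate the few proteins encoded by mitochondrial DNA, all of them subunits of the respiratory chain and ATP synthase. The ribosomal RNAs come from that DNA, while every protein of the ribosome is encoded in the nucleus, made in the cytosol and imported. Part of these proteins belong to families shared with bacterial ribosomes, and the others arose in the mitochondrial lineage, many of them at the surface of the particle. Loss of single subunits is known to cause combined deficiencies of oxidative phosphorylation in people.

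Transcripts of all 78 genes were present in every library, and 0 passed the test between the groups. Their mean levels ran from 6.71 FPKM for Mrpl1 to 85.6 FPKM for Mrpl17, a 12.8-fold range with a median of 27.6 FPKM and quartiles of 17.2 and 45.7 FPKM. All 78 passed the filter on low values, a mean of at least 1 FPKM over the 6 libraries. The number of fragments behind a value, estimated from the deposited intervals, was 54.6 to 1130 with a median of 347. The 74 genes of cytosolic ribosomal proteins had a median of 545.3 FPKM, 19.7 times as high. In bulk RNA, fewer expressing cells and less RNA per cell cannot be told apart.

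The 5 highest genes all encode proteins of the large subunit. Mrpl17 stood at 83.1, 85.7 and 84.1 FPKM with the GFP vector and at 91.9, 78.2 and 90.9 FPKM with the CCNB1IP1 vector. Mrpl52, a subunit without a bacterial counterpart, had 95.6, 85.2 and 86.7 FPKM and then 88.6, 71.1 and 78.1 FPKM. Both sets of libraries overlapped for each gene. Mrpl23, whose protein lines the exit of the peptide tunnel, had a mean of 69.5 FPKM, Mrpl30 had 68.2 FPKM and Mrpl33 had 64.5 FPKM.

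The 5 lowest genes also belong to the large subunit. Mrpl1, the protein of the mobile L1 stalk, stood at 6.89, 6.03 and 5.47 FPKM with the GFP vector and at 6.63, 7.675 and 7.58 FPKM with the CCNB1IP1 vector, so 2 of the latter lay above all GFP libraries and the third lay among them. Mrpl50 had a mean of 8.45 FPKM and Mrpl39, a relative of threonyl-tRNA synthetase, had 8.999 FPKM. Mrpl45, which helps to hold the ribosome at the inner membrane, had 9.93 FPKM. Mrpl19 had 8.27, 11.7 and 7.83 FPKM and then 12.5, 11.8 and 7.57 FPKM, an uneven pattern in which both groups held high and low libraries.

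**Figure D1:**
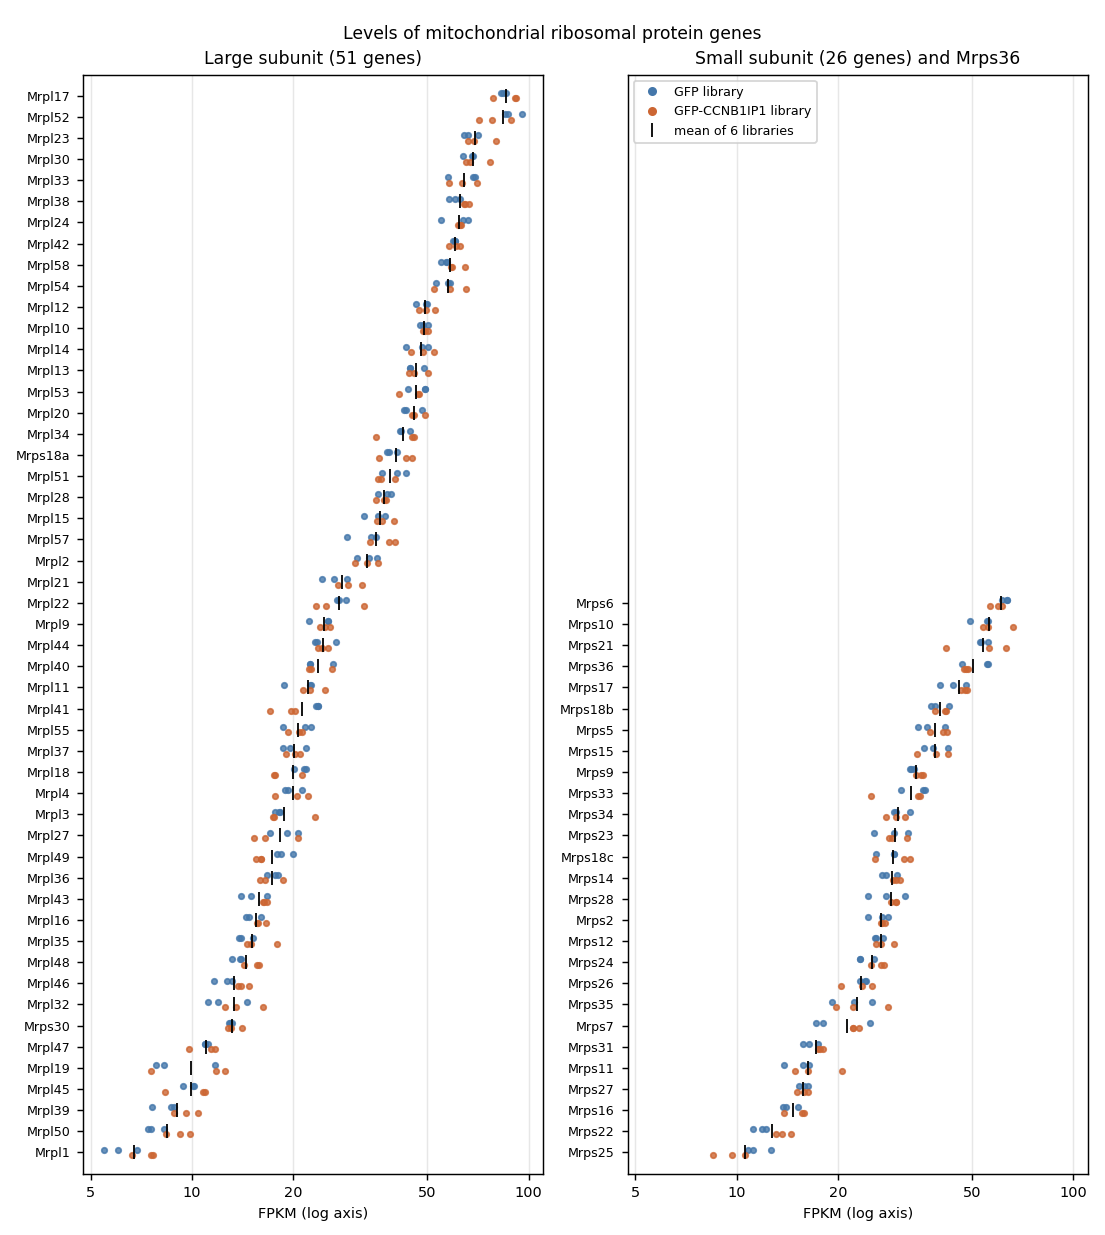
FPKM (log axis) of the 78 genes, large subunit on the left and small subunit with Mrps36 on the right, ordered by the mean of 6 libraries (black tick); blue points are GFP libraries and orange points GFP-CCNB1IP1 libraries. Levels run from 6.71 FPKM (Mrpl1) to 85.6 FPKM (Mrpl17), and most genes show both colours intermingled.

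The 51 genes of the large subunit had a median of 24.6 FPKM and the 26 of the small subunit a median of 28.9 FPKM, with a wider range in the large subunit (6.71 to 85.6 FPKM) than in the small (10.6 to 61.1 FPKM). Mrps30 and Mrps18a are counted with the large subunit, where their proteins lie. Mrps36 is counted with neither, since its protein is now known as a component of the 2-oxoglutarate dehydrogenase complex. Summed over the large subunit the level was 1686 ± 47.7 FPKM (SD, n = 3) with the GFP vector and 1714 ± 83.0 FPKM in the GFP-CCNB1IP1 libraries. For the small subunit the sums were 770.1 ± 20.2 and 792.9 ± 35.7 FPKM. The ratio of large to small was 2.19 ± 0.0315 and 2.16 ± 0.0677, and the groups overlapped in each of these sums and in their ratio.

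The comparison between groups asked whether any of these genes differed with the CCNB1IP1 vector. The test was limma on log2(FPKM + 1), fitted to 13231 genes with p-values adjusted over all of them, and a gene was called at an adjusted p under 0.05. Of the 78 genes 0 were called, against 0.00756% of all genes tested, which was a single gene. The smallest adjusted p among the 78 was 0.247. At an unadjusted p under 0.05 there were 6 of the 78, or 7.69%, against 11.4% of all genes. Of these 3 were higher, against 5.59% of all genes, and 3 lower, against 5.77%. All fold changes given are differences of log2(FPKM + 1), so those of low genes are understated.

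The 3 lower genes were Mrpl41, Mrpl49 and Mrps25, and none passed over all genes. Mrpl41 (ENSMUSG00000036850.5, chromosome 2, 24864129 to 24865110, with no build given in the sources used here) encodes a large-subunit protein also described as a partner of BCL2. It stood at 23.7, 23.4 and 23.7 FPKM with the GFP vector and at 19.7, 17.0 and 20.2 FPKM with the CCNB1IP1 vector. Every GFP-CCNB1IP1 library was below every GFP library, and the GFP libraries were nearly equal. The log2 fold change was -0.30 (SE 0.072; limma, unadjusted p = 0.00313, adjusted p = 0.247), and it was the 1 change of the 78 beyond 0.25 in size.

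Mrpl49 (chromosome 19, 6103652 to 6107815), a large-subunit gene, stood at 20.02, 18.3 and 17.9 FPKM with the GFP vector and at 16.03, 16.04 and 15.5 FPKM with the CCNB1IP1 vector. The groups did not overlap, and the log2 fold change was -0.23 (SE 0.062; limma, adjusted p = 0.282). Its locus overlaps that of Syvn1, a ubiquitin ligase gene of the endoplasmic reticulum, by 91 bases. Syvn1 had a mean of 21.75 FPKM, above the 17.3 FPKM of Mrpl49, and a log2 fold change of -0.069. Mrps25 (chromosome 6, 92146506 to 92161014), of the small subunit, had 11.2, 10.8 and 12.7 FPKM and then 9.71, 8.53 and 10.6 FPKM, again without overlap, though the highest GFP-CCNB1IP1 library lay close to the lowest GFP library. Its log2 fold change was -0.25 (SE 0.094; limma, adjusted p = 0.394). It shares 4770 bases of its locus with the nuclear receptor gene Nr2c2, which stood at the same level of 10.6 FPKM with a log2 fold change of 0.11; strand was not stated, so reads of such a pair may not be separable.

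The 3 higher genes were Mrps22, Mrpl50 and Mrpl46, and none of them passed either. Mrps22 (chromosome 9, 98470783 to 98483713), a small-subunit gene in which variants are a known cause of mitochondrial disease, stood at 12.2, 11.2 and 11.9 FPKM with the GFP vector and at 13.6, 14.5 and 13.1 FPKM with the CCNB1IP1 vector. All of the latter lay above all of the former, and the log2 fold change was 0.21 with an SE of 0.067 (limma, adjusted p = 0.321). Mrpl50 (chromosome 4, 49512596 to 49521093) had 7.57, 7.40 and 8.28 FPKM and then 8.36, 9.21 and 9.90 FPKM. Its groups were apart by less than 0.1 FPKM at their nearest libraries, and its log2 fold change was 0.21 (SE 0.083; limma, adjusted p = 0.397).

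Mrpl46 (chromosome 7, 78424984 to 78433279) stood at 12.7, 13.2 and 11.6 FPKM with the GFP vector and at 14.0, 13.7 and 14.7 FPKM with the CCNB1IP1 vector, without overlap (log2 fold change 0.17, SE 0.069; limma, adjusted p = 0.417). Its locus shares 413 bases with that of Mrps11, a gene of the small subunit. Mrps11 had group means of 15.3 and 17.2 FPKM and a log2 fold change of 0.15 (SE 0.117), and its groups overlapped.

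**Figure D2:**
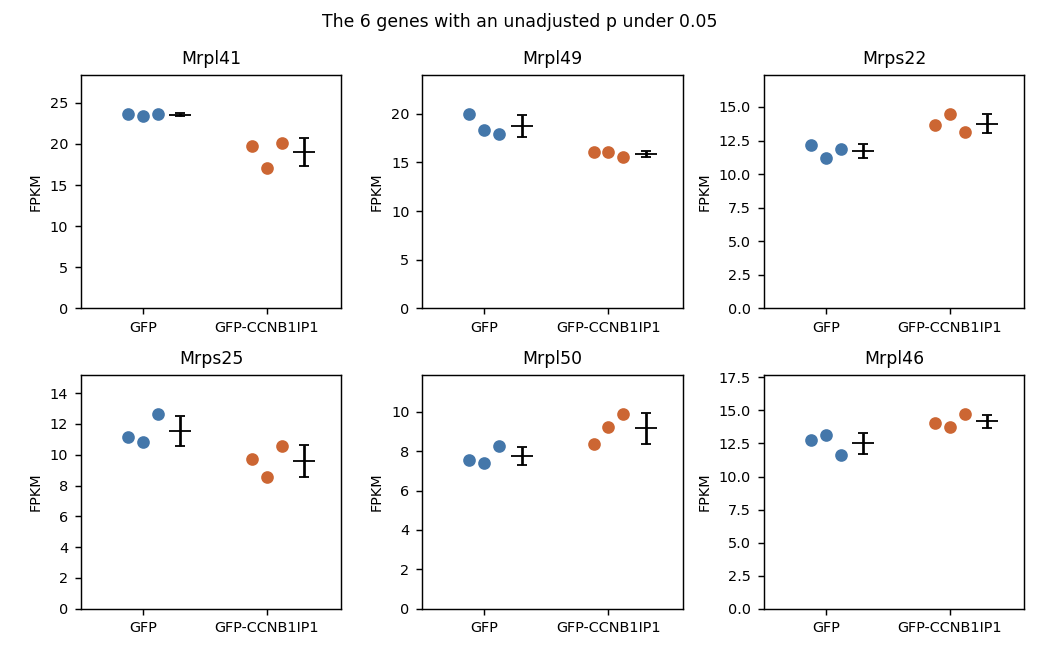
FPKM in each library of the 6 genes with an unadjusted p under 0.05; points are libraries, and the black bar beside each group is its mean with the SD (n = 3). The groups do not overlap in any panel, Mrpl41, Mrpl49 and Mrps25 are lower and Mrps22, Mrpl50 and Mrpl46 higher with CCNB1IP1, and the adjusted p is 0.247 or more for each.

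The groups did not overlap for 12 of the 78 genes, 8 higher (10.3%, against 8.7% of all genes) and 4 lower (5.13%, against 8.9% of all genes). Besides the 6 above, Mrpl38, Mrpl39, Mrpl48, Mrpl58 and Mrps9 were higher in this sense and Mrps6 lower; Mrps9 is named because it completes the count, after its values were seen. Mrpl58, a peptidyl-tRNA hydrolase built into the large subunit that can free stalled chains, had 56.3 ± 1.28 and 60.8 ± 3.28 FPKM (SD, n = 3). Mrpl38, a protein of the central protuberance, had 60.4 ± 2.43 and 65.1 ± 1.33 FPKM. For Mrpl39 the margin was narrow, with a highest GFP library of 8.848 FPKM and a lowest GFP-CCNB1IP1 library of 8.858 FPKM. Mrps9 had means of 33.1 and 35.1 FPKM and Mrpl48 had 13.7 and 15.2 FPKM. The locus of Mrpl48 shares 892 bases with Rab6a, which stood higher at 49.9 FPKM. The log2 fold changes were 0.14 for Mrpl48 and 0.13 for Rab6a, and whether reads of the pair were separated was not tested. Mrps6, of a bacterial family, had 3 GFP libraries at 61.5 to 63.7 FPKM and 3 GFP-CCNB1IP1 libraries at 56.6 to 61.3 FPKM; its mean was 62.9 FPKM with the GFP vector and 59.3 FPKM with the CCNB1IP1 vector.

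Sorted by origin, the subunits were assigned to families shared with bacteria or to mitochondria-specific proteins, and Mrps36 to neither. Mrps18a and Mrps18b were counted as mitochondria-specific, although they are relatives of bacterial protein S18. Of the 12 genes without overlap, 10 were among the mitochondria-specific ones. That is 10 of the 31 mitochondria-specific genes (32.3%), beside 2 of the 46 genes of bacterial families (4.35%) and 17.6% of all genes tested. All 6 genes with an unadjusted p under 0.05 (limma) were among these 10, 3 in each direction, where 11.4% of all genes had such a p. They are thus no second result. Only the median was planned to be split by origin, and these counts were added to it. The median log2 fold change was 0.030 for the mitochondria-specific genes and 0.055 for the bacterial families. Spread between replicates moved with this split as well, with a median within-group SD of 0.093 and 0.110 on the log2 scale, and its part in the counts was not tested. No test was made of the difference between these classes.

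For 4 genes whose proteins work at known centres of the ribosome or in its assembly the groups overlapped. Mrps12, which lies at the decoding centre, had 26.3 ± 0.831 and 27.3 ± 1.72 FPKM (SD, n = 3), and the 95% interval of its log2 fold change was -0.09 to 0.20. Mrpl12, the stalk protein that receives the translation factors, had 48.5 ± 1.98 and 49.8 ± 2.68 FPKM, with an interval of -0.10 to 0.17. Mrpl44, a protein with an RNase III fold that is needed for assembly, had 24.5 FPKM in both groups. Mrpl45 had 9.86 ± 0.413 and 9.99 ± 1.47 FPKM. The signs of the log2 fold changes of Mrpl12, Mrpl44 and Mrpl45 turned when single libraries were left out, those of Mrpl44 and Mrpl45 also when values were rescaled to TPM, which gives every library the same sum, and that of Mrpl44 with quantile normalization.

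The 3 relatives of bacterial protein S18 occupy different places, Mrps18c at the bacterial site, Mrps18b elsewhere in the small subunit and Mrps18a in the large subunit. Mrps18a had 39.1 ± 1.39 and 41.5 ± 4.93 FPKM, Mrps18b 39.7 ± 2.56 and 40.7 ± 1.59 FPKM, and Mrps18c 28.2 ± 1.92 and 29.9 ± 3.63 FPKM. All 3 had log2 fold changes between 0.036 and 0.078, and all had overlapping groups. With 1 library left out these ran from 0.014 to 0.176 for Mrps18a, 0.0019 to 0.0864 for Mrps18b and 0.014 to 0.178 for Mrps18c. Mrps24, a small-subunit protein of the S3 family, had 24.01 ± 1.34 and 26.4 ± 1.22 FPKM. Mrpl51 had 40.3 ± 3.35 and 37.4 ± 2.32 FPKM and Mrpl52 89.2 ± 5.64 and 79.3 ± 8.81 FPKM. Mrps36 had 52.6 ± 5.08 and 48.0 ± 0.647 FPKM.

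For most of these genes the interval of the difference was narrow, though it rests on a spread between replicates that may be technical. For 77 of the 78 genes (98.7%) the 95% interval of the fold change, not adjusted for the number of genes, lay within 1.5-fold in either direction, against 90.1% of all genes tested. The exception was Mrpl19, whose interval on the log2 scale ran from -0.29 to 0.63. The median SE was 0.075 for the 78 genes and 0.089 for all genes tested.

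**Figure D3:**
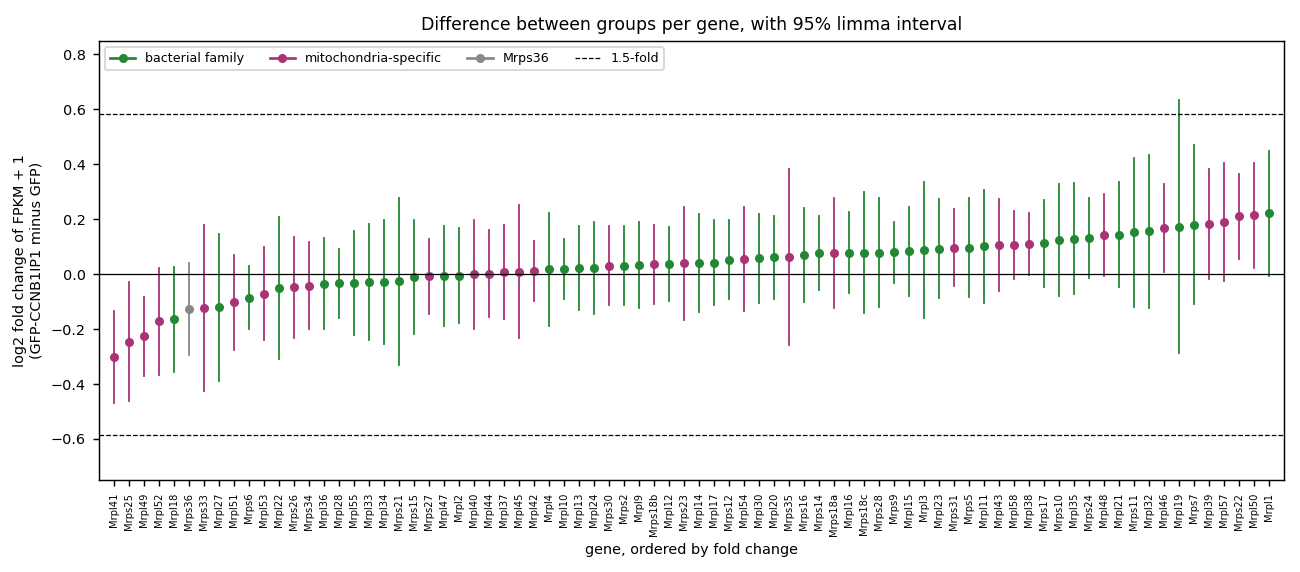
Log2 fold change of FPKM + 1 (GFP-CCNB1IP1 minus GFP) of the 78 genes in order of size, with the 95% interval from limma as a vertical line, green for bacterial families, purple for mitochondria-specific proteins and grey for Mrps36. Values run from -0.30 (Mrpl41) to 0.22 (Mrpl1), and the interval of Mrpl19 alone crosses a dashed line at 1.5-fold.

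Most of the small differences were positive. The log2 fold change was above 0 for 53 of the 78 genes (67.9%), against 51.4% of all genes tested, and the median was 0.040, against 0.004. This was not particular to them. Of 70 tested genes of cytosolic ribosomal proteins 52 were above 0 (74.3%), with a median of 0.030. The median of the 78 genes was 0.064 without GFP replicate 1, 0.068 without GFP-CCNB1IP1 replicate 2 and 0.013 without GFP-CCNB1IP1 replicate 1. Without GFP replicate 1 the genes at an unadjusted p under 0.05 numbered 10 higher and 3 lower, without GFP-CCNB1IP1 replicate 1 they numbered 3 higher and 6 lower, and without GFP replicate 2 they numbered 2 higher and 4 lower. The share of all genes at an unadjusted p under 0.05 was not taken in these fits, so the counts cannot be set against it. In each of these fits 0 of the 78 passed over all genes. The median was 0.034 in the large subunit and 0.067 in the small.

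GFP-CCNB1IP1 replicate 1 had the highest summed level of these genes. Summed over all 78 genes, the GFP libraries had 2586, 2488 and 2452 FPKM and the GFP-CCNB1IP1 libraries 2674, 2449 and 2542 FPKM. The highest and the lowest sum were thus both in GFP-CCNB1IP1 libraries, and the groups overlapped. Replicate 1 of GFP-CCNB1IP1 was the highest of the 6 libraries for 30 genes (38.5%, against 21.4% of all genes tested). It was the lowest for 1 gene (1.28%, against 11.7% of all genes tested). Without it, the log2 ratio of the summed levels went from 0.026 to -0.0075, and 46 of the 78 genes were higher. The share of all genes that were higher in that fit was not taken. The 78 genes held between 0.518 and 0.561% of all FPKM in a library. GFP replicate 1, at 0.55%, was close to the 0.561% of GFP-CCNB1IP1 replicate 1.

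**Figure D4:**
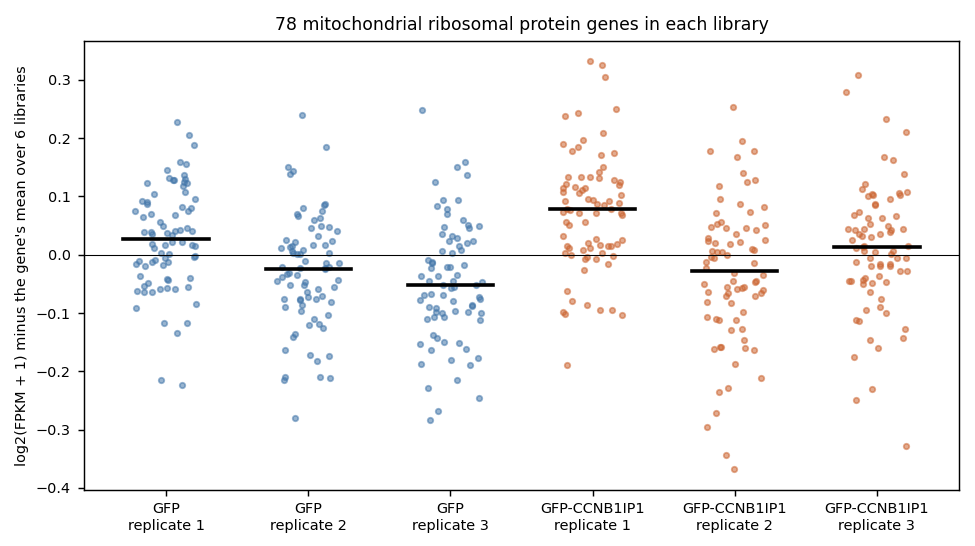
Log2(FPKM + 1) of each of the 78 genes minus its mean over the 6 libraries, by library, blue for GFP and orange for GFP-CCNB1IP1; the black line is the median. The median is highest in GFP-CCNB1IP1 replicate 1 (0.078) and lowest in GFP replicate 3 (-0.052), and the other GFP-CCNB1IP1 libraries lie within the range of the GFP libraries.

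The genes lie on 17 chromosomes, with 11 on chromosome 11, 8 on chromosome 17 and 7 on chromosome 6. The loci of 24 of them overlap another gene with a mean of at least 1 FPKM, and for 7 an overlapping gene was more abundant than the member itself. Mrpl18, at 19.97 FPKM, overlaps the chaperonin gene Tcp1, at 194.9 FPKM, by 645 bases; its log2 fold change was -0.16 (SE 0.083) and that of Tcp1 was -0.021. Mrpl27 overlaps Eme1, a nuclease gene of DNA repair whose log2 fold change was -0.83 (limma, adjusted p = 0.212), by 198 bases, and had one of -0.12 itself (SE 0.115). These loci were picked out after their values were seen. The 54 genes without such an overlap had a median log2 fold change of 0.040. Named pseudogenes also carried reads: Mrpl48-ps had a mean of 15.6 FPKM, as high as the 14.4 FPKM of Mrpl48, so how reads were divided between them is uncertain.

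None of the 5 subunits that carry other names passed the test, and the lowest unadjusted p among them was 0.178. Dap3, known also for its part in apoptosis, had 47.3 ± 0.661 and 48.1 ± 2.58 FPKM (SD, n = 3). Ptcd3, an RNA-binding protein of the small subunit, had means of 33.4 and 32.9 FPKM, Chchd1 had 51.5 and 48.2 FPKM, Aurkaip1 53.3 and 55.8 FPKM, and Gadd45gip1, in the large subunit, 9.57 and 9.94 FPKM. The groups overlapped for all 5.

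Genes that build, run and regulate the mitochondrial ribosome gave no call either. With those 5, 80 genes of 6 lists were tested, and 0 passed over all genes. At an unadjusted p under 0.05 there were 5 higher (6.25%, against 5.59% of all genes) and 1 lower (1.25%, against 5.77%). The log2 fold change was above 0 for 51 of the 80 (63.8%), against 51.4% of all genes. Without overlap of the groups, 10 of the 80 were higher and 2 lower, against 8.7% and 8.9% of all genes. Among 24 tested genes of assembly and ribosomal RNA modification 18 had a positive log2 fold change (median 0.029). Rpusd4, a pseudouridine synthase acting on mitochondrial ribosomal RNA, had 10.1 ± 0.113 and 11.4 ± 0.552 FPKM. The helicase gene Dhx30 had 23.1 and 25.8 FPKM. Eral1, a chaperone of the small ribosomal RNA, had 8.28 and 7.07 FPKM, and Rbfa, which matures the small subunit, had 23.03 and 21.2 FPKM.

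Of 15 genes of translation factors, 9 had a positive log2 fold change (median 0.047). Mtres1, which rescues stalled ribosomes, stood at 19.5, 21.1 and 18.9 FPKM with the GFP vector and at 21.98, 21.65 and 22.5 FPKM with the CCNB1IP1 vector, without overlap (limma, adjusted p = 0.424). The elongation factor genes Guf1 and Tufm had 9.69 and 10.9 FPKM and 33.8 and 32.5 FPKM, and the ribosome recycling factor gene Mrrf had 9.67 ± 0.894 and 7.86 ± 1.86 FPKM.

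In the 18 genes of mitochondrial DNA copying, transcription and RNA processing 10 had a positive log2 fold change (median 0.041). Slirp, which stabilises mitochondrial messenger RNA together with Lrpprc, stood at 20.8, 23.4 and 23.1 FPKM with the GFP vector and at 28.3, 26.9 and 25.04 FPKM with the CCNB1IP1 vector. All of the latter were higher (log2 fold change 0.24, SE 0.070; limma, adjusted p = 0.292). Polg, the mitochondrial DNA polymerase, had 16.8, 18.8 and 19.97 FPKM and then 15.7, 15.8 and 16.1 FPKM, all lower (log2 fold change -0.21, SE 0.072; limma, adjusted p = 0.354). Tfam, which packages mitochondrial DNA, had means of 21.5 and 24.3 FPKM, and the RNA polymerase gene Polrmt had 18.5 and 16.5 FPKM.

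Among the 10 tested genes of membrane insertion and protein quality control 7 had a positive log2 fold change (median 0.011). The protease genes Clpp and Yme1l1 had 29.8 ± 0.347 and 32.3 ± 0.789 FPKM and 28.9 and 31.1 FPKM. Phb had 46.4 and 44.5 FPKM, and Letm1 had 15.9 and 15.4 FPKM. Of the 8 tested regulators of mitochondrial genes, 4 had a positive and 4 a negative log2 fold change. Gabpa, the DNA-binding part of the factor NRF-2, had 16.3 ± 0.175 and 18.6 ± 1.29 FPKM without overlap (limma, adjusted p = 0.387). Yy1 had 15.8 and 17.9 FPKM. The coactivator genes Pprc1 and Ppargc1b had 21.9 and 19.1 FPKM and 2.15 and 1.95 FPKM.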

How the data were processed

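The authors deposited 1 table per library, which per the file headers holds FPKM of each gene and its confidence bounds; HISAT2 and Cufflinks are named in the submitters' processing notes, with no role or version. The sources used here give no build, annotation release or strand setting. Identifiers on several rows (38 of 53492) were summed. Genes with a mean of at least 1 FPKM (13231) were tested on log2(FPKM + 1) with limma 3.58.1 (R 4.3.3), using the trend of variance on level, no block, and Benjamini-Hochberg adjustment over all of them. No exact permutation test was run, since with 3 against 3 its smallest p is 0.1. The fragment number of a value was taken as the squared ratio of FPKM to its standard error, with the upper bound lying 2 such errors away. Libraries of 1 group correlated at a Pearson r of 0.985 to 0.988 and libraries of different groups at 0.984 to 0.986; r is taken across genes, and these are no replicates.

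The members and lists were chosen with earlier results of these data known. Of 107 list symbols 106 matched. Named were the 8 members with the smallest p in each direction, the 5 highest and 5 lowest, 9 listed for their role, the 5 subunits with other names, 2 genes per direction and other list, and overlapping genes. In simulated data for this comparison, with 13082 genes, genes given a log2 change of 0.5 were called in 73% of cases and those given 1 in 98%. The changed genes, 100 of each size, were drawn only from more abundant genes, and 6 unchanged genes were called. How often such changes are called in low genes, or where few genes change, was not measured. The alternatives were other pseudocounts, filters, scalings, a replicate block, other limma settings, overlapping loci left out and each library left out.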

Additional observations from a re-analysis of the deposited data

How the results depend on the processing

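None of the 78 genes was called under any of the 16 alternative fits or with overlapping loci left out; their smallest adjusted p was 0.214, under quantile normalization (limma). The single call among all genes became 0 when 5 was added before the log, when low genes were kept, in limma without the trend and with the replicate number as a block, and 0 to 4 with a library left out. At an unadjusted p under 0.05 (limma), the 78 genes had 3 higher and 3 lower. They had 6 and 3 with low genes kept, and 4 and 4 with the replicate block. The share of all genes at such a p was taken in the main fit only. Across all genes tested, same-numbered libraries did not deviate together (correlations of 0.023, -0.009 and -0.011), so the numbers were not taken to pair them. Across the 78 genes these correlations were -0.038, 0.025 and 0.226, beside -0.252 to 0.263 for libraries of different numbers. Such a correlation does not show a shift shared by all 78 genes. Both libraries numbered 1 held larger shares of all FPKM in these genes (0.55 and 0.561%) than the others (0.518 to 0.522%). Whether the numbers pair the libraries was not tested. The block changed no call among the 78. The median log2 fold change of the 78 genes was 0.029 to 0.041 under the other settings and 0.013 to 0.068 with a library left out. The log2 ratio of summed levels (0.026) was -0.0075 to 0.0559 with a library left out and negative without GFP-CCNB1IP1 replicate 1. Of 464 values of 29 named genes, 450 kept their direction and 14, of 5 genes, turned. Under TPM, Mrpl45 was at -0.0025 and Mrpl44 at -0.0093, and under quantile normalization Mrpl44 was at -0.0024. With a library left out, Mrpl45 ran from -0.0535 to 0.1249, Mrpl44 from -0.033 to 0.0643, Mrpl33 from -0.1096 to 0.0387, Mrpl30 from -0.0155 to 0.1018 and Mrpl12 from -0.0025 to 0.0734. The cause was not tested. Few libraries and values without counts limit the precision.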
